A study of Mus musculus with 6 samples.

Results

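Transcripts of 9 secreted peptides of the suprachiasmatic nucleus (SCN), the hypothalamic seat of the circadian clock, were followed across 6 RNA-seq libraries. They are the opioid precursors Penk, Pdyn and Pnoc, somatostatin (Sst), the tachykinin precursor Tac1, cholecystokinin (Cck), galanin (Gal), neurotensin (Nts) and the C1q-like protein C1ql3. All 9 were taken by gene symbol, of 17645 genes listed in at least 1 library, and all 9 passed the filter on low counts that left 14438 genes for testing. The libraries came from needle punches of the SCN of female C57BL/6 mice killed in the dark at ZT 12 to 14 (zeitgeber time, hours after lights on), each a pool of RNA from 2 SCN. The 3 libraries titled V (replicates 2, 3 and 4) were read as the control genotype. The 3 titled r1r2V (replicates 1, 4 and 5) were read as the genotype of the series title, in which GABAergic neurons lack Rev-erbα and Rev-erbβ. The sources used here give neither the Cre driver, the alleles of either group nor the ages, nor whether the SCN of a pool or of different pools came from separate animals. P-values therefore measure the spread between these pools, which may be partly technical.

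Neuropeptides are cut from larger precursors in the secretory pathway, stored in dense-core vesicles and released to act on G-protein-coupled receptors. SCN neurons are nearly all GABAergic and are told apart by the peptides they add to GABA, so the peptide transcripts mark neuron classes and their positions within and around the nucleus. REV-ERBα and REV-ERBβ, products of Nr1d1 and Nr1d2, are nuclear receptors that repress transcription in the clock's negative limb.

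Total expected counts, the authors' estimated reads per gene, ran from 15729603 to 17780928 per library. Levels are given as CPM, reads scaled to a common library size with edgeR's TMM factors, or, between genes, as the authors' FPKM. Nr1d1 was higher in r1r2V (58.8 and 167 CPM on average, adjusted p = 8.24e-05 by edgeR's quasi-likelihood test) and Nr1d2 did not pass (log2 fold change 0.47, adjusted p = 0.0553), so totals over all exons do not show a deletion and the direction of each comparison rests on the titles. All 10 SCN marker genes were detected in every library, among them Avp, Vip and Rgs16. Their levels summed to 438 to 522 CPM in V and 389 to 514 CPM in r1r2V. Avp was the largest part of that sum, at 247 to 360 CPM in V and 160 to 384 CPM in r1r2V. All 10 markers of neighbouring hypothalamic neurons were also detected, none at 0 in any library, and summed to 1327 to 1424 CPM in V and 893 to 1787 CPM in r1r2V. Oxt, the oxytocin gene, contributed most to that sum. Some libraries stood apart in such genes. Pmch, the melanin-concentrating hormone gene of the lateral hypothalamus, stood at 581 CPM in r1r2V replicate 5 and 213 CPM in V replicate 3, against 1.67 to 23.3 CPM in the other 4. Pomc, an arcuate opioid precursor gene, was at 303 CPM in V replicate 3 and at 2.76 to 68.8 CPM elsewhere. The part that the reach of the punch plays in the peptide results was not tested.

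None of the 9 peptide genes passed the comparison of r1r2V with V, and libraries of the same group differed more than the group means did. With edgeR's quasi-likelihood test and Benjamini-Hochberg adjustment over all genes, 0 were higher, where 0.298% of all genes tested were, and 0 lower, where 0.118% were (0.416% in either direction). At an unadjusted p under 0.05 the count was 0, beside 1095 of all 14438 genes tested. DESeq2 and limma-voom also called 0, with 1 gene (Cck) and 0 genes at an unadjusted p under 0.05. Over all genes, 417 higher and 382 lower of 17634 were under it with DESeq2, and 540 and 562 of 14438 with limma-voom. Libraries of the groups overlapped for all 9 genes, while 14.5% of the genes tested had groups that did not overlap. Log2 fold changes (r1r2V minus V) lay between -0.26 and 0.34, 6 of them above 0, with a median of 0.06 beside 0.01 over all genes. In tissue punches, fewer cells of a type and less RNA per cell cannot be told apart.

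**Figure D1:**
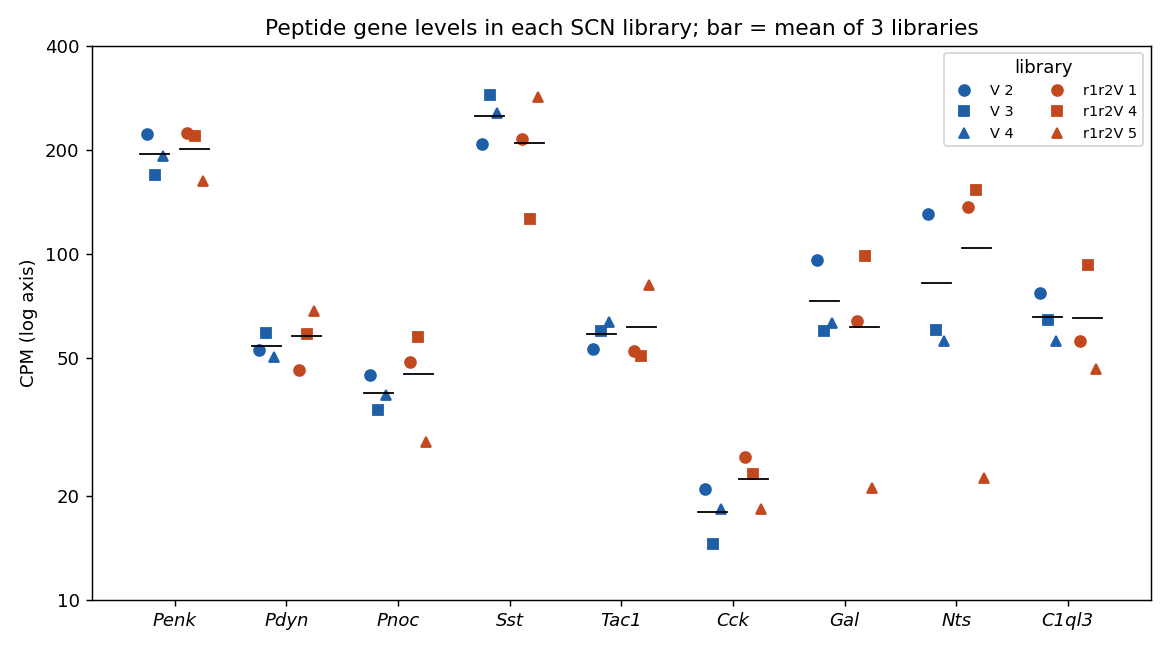
Level of each peptide gene (CPM, log axis) in the 3 V libraries (blue) and the 3 r1r2V libraries (orange), one symbol per library, with a black bar at the mean of each group. The groups overlap for every gene, and Gal and Nts reach down to 21.0 and 22.6 CPM in r1r2V replicate 5.

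Compared per transcript length, in the authors' FPKM, Sst was the most abundant of the 9 in V, at 502 ± 81.9 FPKM (SD, n = 3), which placed it between rank 90 and rank 180 of the genes in those libraries. Penk followed at 160 ± 21.3 FPKM, then Gal at 103 ± 28.1 and Nts at 72.3 ± 36.5 FPKM (SD, n = 3 each). Tac1 had 59.3 ± 5.34, Cck 29.5 ± 5.23 and Pdyn 23.4 ± 2.2 FPKM, and C1ql3 and Pnoc closed the order with 21.5 ± 3.43 and 19.4 ± 2.18 FPKM (SD, n = 3 each). In that order only the steps from Sst to Penk, from Penk to Gal and from Tac1 to Cck separated all 3 V libraries of one gene from all 3 of the next. Gal, Nts and Tac1 overlapped as neighbours, and so did Cck, Pdyn, C1ql3 and Pnoc. In r1r2V the step from Sst to Penk and that from Tac1 to Cck also separated all libraries, as did that from Cck to Pdyn, while Penk and Gal overlapped.

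Promoter windows were available for 7 of the 9 genes (RefSeq, GRCm38.p6, from 250 bases before to 50 bases after the transcript start), with none for Penk and Pnoc. The start of the Sst window, base 23890844 of chromosome 16, lies 498 bases inside the gene's span as RefSeq gives it, whereas those of Tac1, Cck and Nts are the ends of their spans. Motifs searched on both strands were the cAMP response element TGACGTCA and its shorter form CGTCA, which lies within it, the E-box CACGTG and the REV-ERB and ROR half-site AGGTCA. The 200 bases before the start are shown for Sst, Tac1, Cck and Nts, the members with a match there, 5′ to 3′ on the gene's strand, with every match in capitals. They lie at chr16:23890845-23891044 (minus strand), chr6:7554861-7555060 (plus), chr9:121495695-121495894 (minus) and chr10:102490419-102490618 (minus).
Sst: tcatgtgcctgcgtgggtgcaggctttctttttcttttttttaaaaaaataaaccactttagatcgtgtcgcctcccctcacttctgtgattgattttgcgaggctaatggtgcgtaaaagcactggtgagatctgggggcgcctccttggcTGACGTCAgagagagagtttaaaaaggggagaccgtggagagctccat
Tac1: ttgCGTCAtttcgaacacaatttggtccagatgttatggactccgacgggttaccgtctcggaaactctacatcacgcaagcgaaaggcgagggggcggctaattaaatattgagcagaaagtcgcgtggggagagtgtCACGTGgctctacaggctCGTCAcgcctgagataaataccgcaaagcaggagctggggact
Cck: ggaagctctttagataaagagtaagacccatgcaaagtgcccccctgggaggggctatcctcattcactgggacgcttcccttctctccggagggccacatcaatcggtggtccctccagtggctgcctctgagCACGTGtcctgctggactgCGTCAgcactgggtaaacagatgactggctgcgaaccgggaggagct
Nts: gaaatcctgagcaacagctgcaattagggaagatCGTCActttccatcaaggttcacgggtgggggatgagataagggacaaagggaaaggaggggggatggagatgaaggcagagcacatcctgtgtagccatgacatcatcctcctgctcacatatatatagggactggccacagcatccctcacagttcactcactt
Sst alone held the full TGACGTCA, its first base 48 bases before the start, which 1.79% of 32851 promoter windows of the same length hold. CGTCA occurred in 5 of the 7 genes (Sst, Tac1, Cck, Nts and Gal) and in 20.8% of all windows. CACGTG occurred in Tac1 and Cck, with its first base 61 and 66 bases before the start, each with a CGTCA close by at 43 and 47 bases, and in 7.15% of all windows. AGGTCA was in none of the 7 and in 16.3% of all windows, which says only that those letters are not in these windows.

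Among the opioid precursors, Penk encodes proenkephalin, the source of the enkephalins that act at delta and mu receptors. Its gene, number 18619 in the files, is at chr4:4133536-4138815 on the minus strand (GRCm38), where GENCODE places the noncoding A830012C17Rik across it on the other strand. The level was 222, 169 and 192 CPM in V replicates 2, 3 and 4 and 223, 220 and 163 CPM in r1r2V replicates 1, 4 and 5. The lowest and the highest library were both r1r2V, so the groups overlapped entirely. A log2 fold change of 0.06 was fitted, with a standard error of 0.130 and a 95% interval from -0.23 to 0.35 (edgeR, adjusted p = 0.926). That interval spans 0.851-fold to 1.27-fold, the narrowest of the 9 after that of Pdyn.

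Pdyn encodes prodynorphin, whose dynorphins act at the kappa receptor. Its gene (18610) is at chr2:129686549-129699938, minus strand. Levels were 52.9, 59.3 and 50.5 CPM in the V libraries and 46.1, 58.8 and 68.6 CPM in the r1r2V libraries, replicates in the same order as for Penk. Here too both extremes were r1r2V libraries, but replicate 5, the lowest for Penk, was the highest for Pdyn. The log2 fold change of 0.09 (standard error 0.129, 95% interval -0.19 to 0.38) did not pass (edgeR, adjusted p = 0.865).

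Pnoc encodes the precursor of nociceptin, which binds the opioid-like receptor encoded by Oprl1. Its gene (18155) is at chr14:65400673-65425564, minus strand. V libraries had 44.5, 35.4 and 39.2 CPM and r1r2V libraries 48.9, 57.6 and 28.5 CPM. Replicates 1 and 4 of r1r2V lay above every V library and replicate 5 below every one. It had a log2 fold change of 0.18 (standard error 0.206, 95% interval -0.28 to 0.64, edgeR, adjusted p = 0.831). Without r1r2V replicate 5 it was 0.42, at an unadjusted p of 0.00398 and an adjusted p of 0.227 (edgeR). Without that library, 803 genes higher and 825 lower in r1r2V, of 14545, had an unadjusted p under 0.05. Cck, Sst and Nts were among them.

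Tac1 encodes the precursor of substance P and neurokinin A, from chr6:7555061-7562978 on the plus strand (gene 21333). Its levels were 53.1, 60.0 and 63.4 CPM in the V libraries and 52.6, 50.8 and 81.1 CPM in r1r2V. Again r1r2V held both the lowest libraries and the highest one, replicate 5. Its log2 fold change was 0.06 (standard error 0.161, 95% interval -0.29 to 0.42, edgeR, adjusted p = 0.932), and -0.19 without that library (adjusted p = 0.465).

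Sst encodes somatostatin, an inhibitory peptide of SCN and periventricular neurons, at chr16:23889573-23891342 (minus strand, gene 20604), a span that runs past the transcript start used for its promoter window. The V libraries had 208, 288 and 255 CPM and the r1r2V libraries 216, 126 and 286 CPM. Replicate 4 of r1r2V was the lowest of the 6 libraries, and replicate 5 came within the V range near its top. The log2 fold change of -0.26 (standard error 0.235, 95% interval -0.79 to 0.26, adjusted p = 0.792 by edgeR) was -0.56 without r1r2V replicate 5 and -0.00035 without replicate 4.

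Cck encodes cholecystokinin at chr9:121489824-121495694 (minus strand, gene 12424). V libraries had 20.9, 14.5 and 18.3 CPM, and r1r2V libraries 25.8, 23.0 and 18.3 CPM. Replicates 1 and 4 of r1r2V stood above all V libraries, while replicate 5 was level with V replicate 4. Of the 9 genes Cck had the smallest unadjusted p (0.0617), with a log2 fold change of 0.32, a standard error of 0.153 and a 95% interval from -0.02 to 0.66 (edgeR, adjusted p = 0.660). Its sign was positive in all 14 alternatives, with values from 0.19 to 0.45, and its adjusted p was never under 0.320.

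Gal and Nts varied most. Gal encodes galanin, an inhibitory peptide found in preoptic and hypothalamic neurons, at chr19:3409915-3414544 (minus strand, gene 14419). Its levels in V were 96.1, 59.9 and 63.1 CPM, and in r1r2V 64.0, 99.0 and 21.0 CPM. V replicate 2 and r1r2V replicate 4 were high and alike, 3 libraries were intermediate, and r1r2V replicate 5 was lowest. For Gal the log2 fold change was -0.25 with a standard error of 0.411 and a 95% interval from -1.17 to 0.66 (edgeR, adjusted p = 0.889), and it turned to 0.15 without r1r2V replicate 5.

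Nts encodes neurotensin, at chr10:102481756-102490418 (minus strand, gene 67405). Levels were 130.5 (V replicate 2), 60.2 and 56.1 CPM in V libraries and 137, 153 and 22.6 CPM in r1r2V libraries. There were 3 libraries, 1 of V and 2 of r1r2V, at 130.5 CPM or more and 3 at or below 60.2 CPM, so the division of libraries by Nts ran across the groups. For Nts the log2 fold change was 0.34 with a standard error of 0.547 and a 95% interval from -0.88 to 1.56, or 0.542-fold to 2.94-fold (edgeR, adjusted p = 0.889). It was 0.03 with limma-voom, 0.81 without r1r2V replicate 5, 0.84 without V replicate 2 and -0.05 without r1r2V replicate 4.

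C1ql3 encodes a secreted C1q-domain protein that binds the adhesion receptor BAI3 at synapses, at chr2:13001887-13010864 (minus strand, gene 227580). Its expected counts were not whole numbers, unlike those of the other 8. GENCODE places 2 genes that overlap it on the opposite strand, Gm37811 and Gm37824. No label or header states whether counting used strand, so reads of overlapping genes on opposite strands, for C1ql3 as for Penk, cannot be told apart. V libraries stood at 77.2, 64.6 and 56.0 CPM, r1r2V libraries at 56.1, 92.8 and 46.3 CPM. Replicate 4 of r1r2V was highest and replicate 5 lowest, with V between them. For C1ql3 the log2 fold change was -0.02 (standard error 0.219, 95% interval -0.51 to 0.47, edgeR, adjusted p = 0.986).

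**Figure D2:**
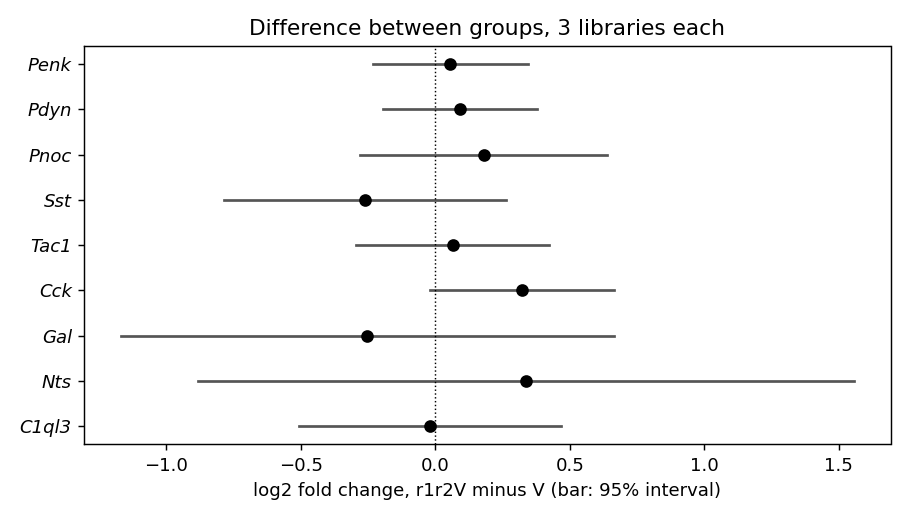
Log2 fold change of each peptide gene, r1r2V minus V, as a point with its 95% interval from edgeR's quasi-likelihood fit (3 libraries a group). All 9 intervals include 0, and those of Gal (-1.17 to 0.66) and Nts (-0.88 to 1.56) are the widest.

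The spread between libraries of a group was far above counting error. For Nts the coefficient of variation (CV) of CPM was 50.8% in V and 68.3% in r1r2V, where its counts alone would give 2.65% and 2.36%. For Gal it was 27.4% and 63.7%, against 2.82% and 3.07% from counting. Penk, with CVs of 13.8% and 16.9%, and Cck, with 18.1% and 17.0%, differed least between the groups. A larger CV in r1r2V than in V was seen for 8 of the 9 genes, Cck being the exception, and for 71.7% of all genes tested. The median CV of the 9 was 16.1% in V and 33.2% in r1r2V, beside 5.74% and 9.41% over all genes tested.

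The same held for edgeR's biological coefficient of variation, its estimate per gene of the spread beyond counting within groups. It was 46.2% for Nts, 35.2% for Gal, 20.4% for Sst, 18.9% for C1ql3, 17.7% for Pnoc, 14.1% for Tac1, 12.9% for Cck, 11.8% for Penk and 11.4% for Pdyn, with a median of 8.41% over all genes tested. Among the 10381 genes whose mean was 10 CPM or more, all 9 were above the 92nd percentile by this measure, from 93.0 (Pdyn) to 99.9 (Nts). Markers of neighbouring hypothalamic neurons had a median of 21.9%, SCN markers 15.4% and GABAergic markers 7.75%.

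**Figure D3:**
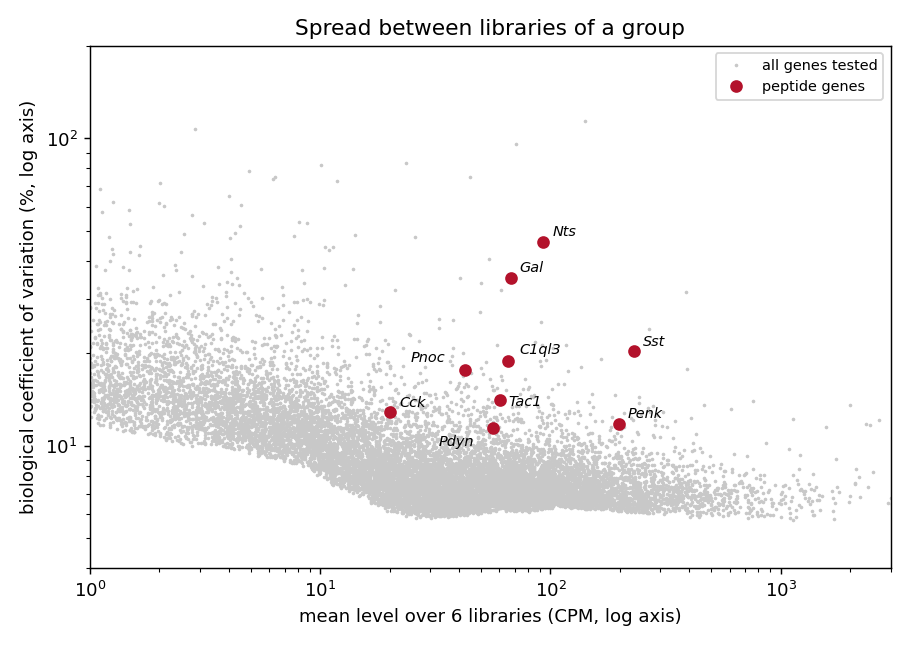
Biological coefficient of variation (%, log axis) against the mean level over 6 libraries (CPM, log axis, from 1 CPM) for the genes tested (grey) and the 9 peptide genes (red). Nts at 46.2% and Gal at 35.2% lie far above most genes of similar level, and Pdyn at 11.4% lies nearest to them.

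Some peptide genes shared their lowest or highest library. From library to library Nts, Gal, Pnoc, Penk and C1ql3 were all lowest in r1r2V replicate 5, and 4 of these 5 were highest in r1r2V replicate 4, Penk being highest in replicate 1. Sst and Tac1 ran the other way, both lowest in r1r2V replicate 4, with Tac1 highest and Sst second highest in replicate 5. The order of the 6 libraries by Tac1 was the exact reverse of that by Nts (Pearson r of log2 CPM -0.99, Spearman rho -1.0, n = 6), and r was -0.98 over the 4 libraries left without r1r2V replicates 4 and 5. Pnoc followed Nts (r = 0.95, rho = 0.94) and opposed Sst (r = -0.88, rho = -0.89), at 0.91 and -0.93 over the same 4 libraries. Gal followed Nts with r = 0.91 and rho = 0.89, but with r = 0.61 without those libraries. These are descriptions over 6 pools that share the punch and the library, read from pairs noticed in the data among 36, whose r ran from -0.99 to 0.95 with a median of 0.02. Whether such values exceed those of other genes was not tested. Within a library, the FPKM of Nts relative to that of Sst was 0.275, 0.0919 and 0.0968 in V and 0.279, 0.532 and 0.0344 in r1r2V, a 15.5-fold span that needs no scaling between libraries. V replicate 2 and r1r2V replicate 1 had nearly the same ratio.

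**Figure D4:**
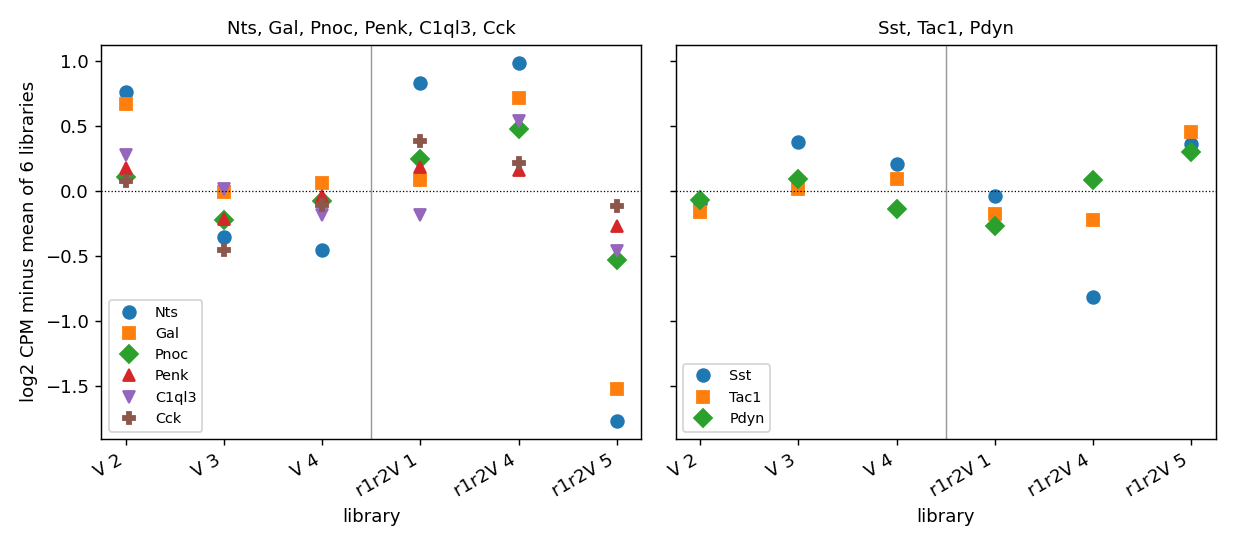
Log2 CPM of each peptide gene minus its mean over the 6 libraries, with V libraries left and r1r2V libraries right of the grey line. Nts, Gal, Pnoc, Penk, C1ql3 and Cck (left panel) lie below their means in r1r2V replicate 5, whereas Sst, Tac1 and Pdyn (right panel) lie above theirs.

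Markers of cell types moved with this order to different degrees and in both directions. Of the 10 SCN markers, 6 were lowest and 1 was highest in r1r2V replicate 5. Vip, the peptide gene of the retinorecipient SCN core, was the third closest of 13873 genes to Gal (r = 0.99, rho = 0.71, n = 6), at 85.8, 53.0 and 51.8 CPM in V libraries and 50.5, 72.0 and 11.4 CPM in r1r2V libraries. Avp, the vasopressin gene of the SCN shell and of neighbouring nuclei, was the marker highest in replicate 5, at 247, 259 and 360 CPM in V libraries and 160, 190 and 384 CPM in r1r2V libraries. Dlx1, a homeobox gene of GABAergic forebrain neurons, was closest to Pnoc (r = 0.997, rho = 1.0), at 102, 81.1 and 88.5 CPM in V libraries and 108, 133 and 61.2 CPM in r1r2V libraries. Its relative Dlx2 was second closest to Nts (r = 0.99, rho = 0.89). Both Dlx genes were thus low in the library where those peptides were low. The GABAergic markers Gad1, Gad2 and Slc32a1 summed to 1167 to 1320 CPM in V and to 1206, 1353 and 1086 CPM in r1r2V replicates 1, 4 and 5, a far narrower span than that of Nts. Gad1 and Gad2 made up most of that sum, and their groups overlapped (log2 fold changes -0.04 and 0.04). Slc32a1 was at 150, 141 and 141 CPM in V libraries and 129, 116 and 117 CPM in r1r2V libraries. Its groups did not overlap, as for 14.5% of all genes tested (log2 fold change -0.25, edgeR, adjusted p = 0.314). Of the 10 markers of neighbouring hypothalamic neurons, 3 were lowest and 3 highest in replicate 5. Pmch ran from 1.67 CPM in r1r2V replicate 4 to 581 CPM in replicate 5, the libraries with the most and the least Nts. Kiss1, the kisspeptin gene, was lowest in replicate 5, at 0.175 CPM (3 reads), with 4.94 CPM in replicate 4 and 13.3 CPM, its highest level, in replicate 1. The glutamatergic marker Slc17a6 was at 295 CPM in replicate 5 and at 188 to 224 CPM in the other 5 libraries. Among non-neuronal markers, replicate 5 was highest for 4 of 4 microglial, 3 of 4 astrocyte, 3 of 4 meningeal and 2 of 3 endothelial genes. It was lowest for 0 of these genes. Replicate 5 was also highest for 1 of 4 oligodendrocyte markers, and lowest for 2 of 3 markers of choroid plexus and ependyma. The share of all genes lowest or highest in replicate 5 is not given here, and 71.7% of genes tested had the larger CV in r1r2V. The part of these cell types in the peptide levels was not tested.

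Other genes closest to a member, by Pearson correlation over the 6 libraries, were Prmt7, Eomes and Coro1c for Penk, Adhfe1 and Trp63 among those for Pdyn, and Tmem164, 4930447C04Rik and Ajap1 for Sst. They were Stx6, Adamtsl3 and Pax6 for Tac1, Dynlt1b, Zcchc2 and Prmt3 for Cck, and Iigp1, Ifi203 and Ppp1r17 for C1ql3. Pde1c and Clca3a1 came after Dlx1 for Pnoc, Pmaip1 and Jpt2 before Vip for Gal, and Scml4 and Kcnf1 on either side of Dlx2 for Nts. All had r of at least 0.97, each among the 3 highest of 13873 correlations with its member over only 6 libraries. Eomes, a T-box factor gene, ranged widest of the genes closest to Penk, with 6.83, 1.58 and 3.62 CPM in V libraries and 6.44, 7.35 and 0.991 CPM in r1r2V libraries. Pax6, a homeobox gene, was at 11.2, 12.8 and 12.6 CPM in V libraries and 11.1, 10.7 and 15.9 CPM in r1r2V libraries, highest where Tac1 was highest.

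Receptor genes of these peptides did not pass either. Of 21 receptor genes, 18 were tested (Tacr2, Galr2 and Galr3 were too low), 0 were higher and 0 lower by edgeR's quasi-likelihood test, and the median log2 fold change was -0.04. At an unadjusted p under 0.05 there was 1, Sstr5, beside 1095 of all 14438 genes tested. DESeq2 and limma-voom also called 0 receptor genes, with 1 at an unadjusted p under 0.05. Per length, the receptor gene of each family with the highest mean was Ntsr2 for neurotensin (97.0 ± 10.7 FPKM in V and 106 ± 27.1 in r1r2V), Oprl1 for the opioids (57.2 ± 1.96 and 52.7 ± 2.01), and Sstr1 for somatostatin (10.01 ± 0.900 and 8.30 ± 1.71; SD, n = 3 each). The others were Cckar for cholecystokinin (7.59 ± 1.01 and 6.50 ± 1.41 FPKM), Tacr1 for tachykinins (4.04 ± 0.397 and 4.57 ± 0.581) and Galr1 for galanin (2.27 ± 0.405 and 2.38 ± 0.140; SD, n = 3 each). The lead was not held in every library for cholecystokinin, where Cckbr exceeded Cckar in V replicate 3 (6.67 against 6.66 FPKM) and r1r2V replicate 4 (6.21 against 4.88 FPKM). Nor was it for tachykinins, where Tacr3 exceeded Tacr1 in r1r2V replicate 5 (5.32 against 3.97 FPKM). Adgrb3, which encodes BAI3, had 16.2 ± 1.23 and 16.4 ± 2.00 FPKM (SD, n = 3 each). The nociceptin receptor transcript thus far exceeded those of the kappa, delta and mu receptors, which averaged 9.15 (Oprk1), 0.437 (Oprd1) and 0.420 FPKM (Oprm1) over the 6 libraries.

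All 5 somatostatin receptor genes had log2 fold changes below 0, with a median of -0.27, and none passed. Over all genes tested, 7578 of 14438 were above 0. The values of Sstr2 and Sstr4 were -0.02 and -0.05. All 5 genes were lowest in r1r2V replicate 4, as were 11 of the 21 receptor genes, these 5 included. The share of all genes lowest in that library is not given here, and 71.7% of genes tested had the larger CV in r1r2V. Sstr3 and Sstr4 were highest in r1r2V replicate 5. Sstr5 was at 8.63, 5.46 and 6.53 CPM (V) and 5.16, 4.48 and 4.60 CPM (r1r2V), all r1r2V libraries below all V libraries (log2 fold change -0.53, standard error 0.187, edgeR, adjusted p = 0.543). Such a lack of overlap was also seen for Ntsr1 and, in either direction, for 14.5% of all genes tested. Sstr1 was at 40.7, 38.5 and 33.9 CPM (V) and 29.2, 26.1 and 38.8 CPM (r1r2V), where replicate 5 lay within the V range (log2 fold change -0.27, adjusted p = 0.676). Oprl1 differed little between libraries, from 144 to 170 CPM, while its ligand gene Pnoc spanned 2.02-fold. Ntsr2, known from astrocytes, was highest in r1r2V replicate 5 at 198 CPM, the library with the least Nts, and at 123 to 158 CPM elsewhere.

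**Figure D5:**
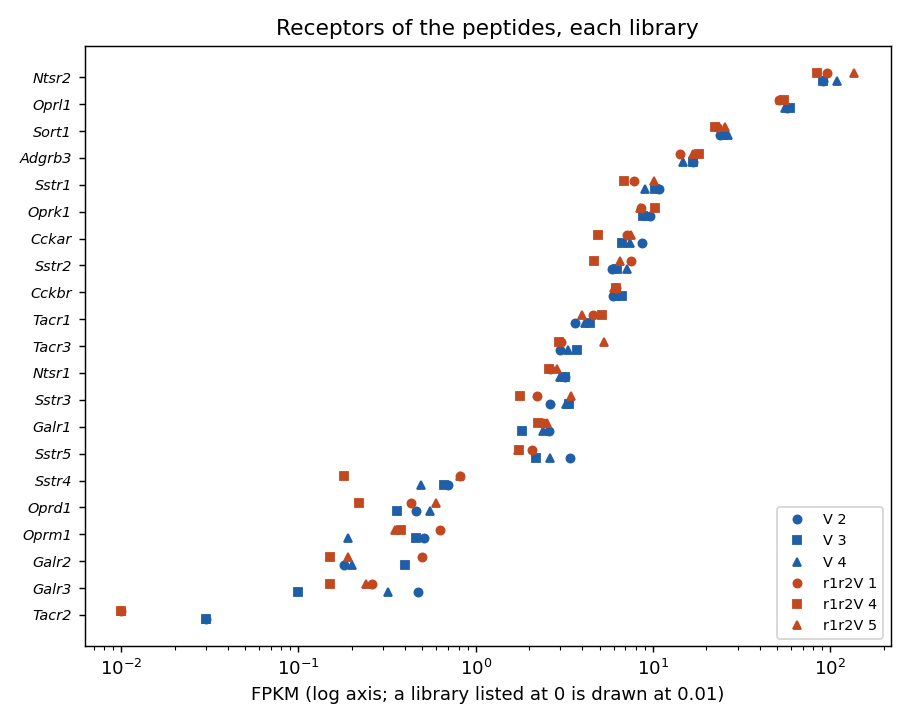
FPKM (log axis) of the 21 receptor genes in each library, V in blue and r1r2V in orange, ordered by their mean. Ntsr2 and Oprl1 are the most abundant, and Oprd1 and Oprm1 stay below 1 FPKM. In FPKM the r1r2V libraries of Sstr5, Ntsr1 and Oprl1 all lie below the V libraries of the same gene, but in CPM those of Oprl1 overlap. Groups did not overlap in CPM for 14.5% of all genes tested. Tacr2 (0.03 FPKM, 1 read, in each V library and 0 in r1r2V) was too low to test.

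Of 8 genes of prohormone processing, 1 was higher and 0 lower, beside 0.298% and 0.118% of all genes tested. Scg5, which encodes the chaperone of prohormone convertase 2, rose from 382, 375 and 382 CPM in V to 733, 565 and 597 CPM in r1r2V (log2 fold change 0.73, edgeR, adjusted p = 0.00641), with no overlap. Leaving out any single V library ended that call (adjusted p 0.0571 to 0.0600). Pcsk1 and Pcsk2, the convertases, had log2 fold changes of 0.19 and -0.13, and Cpe, which trims basic residues, 0.01. None of these passed. Of 8 family relatives of the members, 5 were tested and 0 passed. At an unadjusted p under 0.05 there were also 0, beside 1095 of all 14438 genes tested. The relatives included Tac2, which encodes neurokinin B, at 46.5, 37.1 and 33.6 CPM in V libraries and 51.5, 52.2 and 31.7 CPM in r1r2V libraries, high and low in the same libraries as Nts.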

How the data were processed

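RNA was sequenced from 6 SCN pools, 3 titled V and 3 titled r1r2V. Per the file headers, the authors deposited an expected count (estimated reads, 9.88% of them not whole) and an FPKM value (fragments scaled by length and depth) for each gene. The submitters' processing notes list RSEM 1.2.12, Bowtie2 2.2.5, HISAT2 2.0.4, DESeq2, GATK, Cufflinks 2.2.1 and StringTie 1.0.4, and build mm10, without their roles or a strand setting. A gene not listed in a library was taken as 0.

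Expected counts were rounded and genes filtered with filterByExpr (minimum count 10). Libraries were scaled by trimmed mean of M-values and compared with edgeR 4.0.16 (quasi-likelihood test, R 4.3.3), with Benjamini-Hochberg adjustment over 14438 genes and a threshold of 0.05. The fit was tested on simulated data. Intervals of fold changes are 95%. Alternatives were DESeq2 1.42.0, limma 3.58.1 (voom, and log2(FPKM + 1) or log2(FPKM + 0.1)), other scaling and filters, and leaving out libraries. Each library was counted as 1 sample. Pairs of libraries of a group differed by more than sampling noise (chi-square per degree of freedom 3.75 to 13.0), so none repeated another. That does not show that they came from separate animals. Positions and promoters are RefSeq's (GRCm38.p6), strands GENCODE's. BLAST+ 2.17.0 found 0 members with a near-identical copy (95% identity over at least 50% of the shorter transcript) outside their own locus.

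Members and lists were chosen with earlier results of these data known. Named genes were the members, Nr1d1 and Nr1d2, the receptor gene with the highest mean per family, called list genes, up to 3 abundant markers per list and the 3 genes most like each member. Sstr5, Tac2, Pomc, Pmch, Kiss1, Ntsr2's pattern and the other receptor and processing genes were picked after their values were seen. Markers of striatal neurons, glia, vessels, meninges and ependyma had 0 called genes among 28 tested with edgeR (3 at an unadjusted p under 0.05). Those of SCN, neighbouring, glutamatergic and GABAergic neurons had 0 among 24 (7 at an unadjusted p under 0.05). Over all 14438 genes tested with edgeR, 0.416% were called and 1095 had an unadjusted p under 0.05. Some genes that the naming rules select are not reported here.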

Additional observations from a re-analysis of the deposited data

How the results depend on the processing

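No paired analysis was possible because V and r1r2V have just replicate number 4 in common. None of the 9 peptide genes and none of the receptor genes passed in any of 14 alternatives, 1 of them (leaving out V replicate 3 and r1r2V replicate 5, those with the most Pomc and Pmch) chosen after the data were seen. Over all genes, 43 were higher and 17 lower. The counts were 67 and 37 with DESeq2, 19 to 52 and 7 to 24 without 1 library, and 23 and 8 without those libraries together, where Scg5 did not pass and 0 processing genes were called. Without 1 library, 0 or 1 processing gene was higher. Of the 9 peptide genes, 7 changed sign without 1 library: Penk (-0.035 to 0.19), Pdyn (-0.052 to 0.23), Pnoc (-0.038 to 0.42), Tac1 (-0.19 to 0.18), Gal (-0.78 to 0.15), Nts (-0.049 to 0.84) and C1ql3 (-0.36 to 0.17). With both named libraries left out, the log2 fold change was -0.17 for Tac1, 0.03 for Gal and 0.16 for C1ql3. Sst stayed negative (-0.56 to -0.00035) and Cck positive (0.19 to 0.45). The cause was not tested. Counting error was under 6% for every member, so the spread between pools and their number, not depth, set the width of the intervals.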

Other observations

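Pdyn and Pnoc lie on the chromosomes with most of the called genes, 7 on chromosome 2 and 28 on chromosome 14. The called gene nearest to Pdyn, Fam227b, starts 3.7 Mb away. C1ql3, also on chromosome 2, has its nearest called gene, Ccdc3, 7.86 Mb away. No gene was called on the chromosomes of Sst and Nts (16 and 10).

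Within each library the FPKM of Gal relative to that of Tac1 was 2.54, 1.41 and 1.39 in V and 1.73, 2.75 and 0.362 in r1r2V, a 7.58-fold span over the 6 libraries. In r1r2V replicate 5 alone Tac1 exceeded Gal.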
